A study of Mus musculus with 6 samples.

Results

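Transferrin and the genes that take up, store, export and sense iron were followed in RNA from mouse lung endothelial cells, the cells that line the vessels of the lung. The genes were chosen by name: Trf, Tfrc, Steap3, Slc11a2, Fth1, Ftl1, Slc40a1, Cp, Aco1 and Ireb2, which make up 10 of the 24520 genes in the deposited tables. Trf was put on the list because its level had been seen to be lower in the libraries labelled KO, so its difference between the labels is given as a description with no test. The other 9 were chosen by role, though with earlier results of these data known. All 10 passed the filter on low counts that left 14667 genes for testing.

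The cells were sorted by flow cytometry from the lungs of mice labelled KO or WT for Dnmt3a, a DNA methyltransferase, with 3 libraries per label. The sources used here do not give the allele, what drives the deletion, the strain, the age, any pooling of mice or any manipulation shared by both labels. Whether each library came from its own animal is not stated either, and p-values thus measure only the spread among these libraries, which may be technical. Library totals were 28136194 to 39999172 estimated counts. Dnmt3a itself had 172, 161 and 161 CPM (counts scaled to a common library size with TMM factors) in libraries labelled KO, replicates 1, 2 and 3, against 37.6, 36.5 and 31.8 CPM in libraries labelled WT (log2 fold change 2.22, SE 0.11, edgeR adjusted p = 0.00157). A sum over the gene need not fall when some exons are deleted, but here it was higher, which runs against the label. The reason was not tested. Groups are named by their labels below, and every direction given depends on those labels. Endothelial markers were abundant, as Pecam1 lay between 1846 and 2460 CPM and Cdh5 between 1988 and 2517 CPM in the 6 libraries.

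Iron circulates bound to transferrin, enters cells when transferrin docks on its receptor and is endocytosed, is reduced in the endosome and crosses into the cytosol. It is then used, stored inside ferritin shells, or exported through ferroportin. A pair of iron regulatory proteins read cytosolic iron and, when iron is scarce, bind hairpins in the untranslated regions (UTRs) of target RNAs: binding near the 5′ end blocks translation, as in ferritin, and binding near the 3′ end protects the RNA from decay, as in the transferrin receptor. Part of this control therefore leaves no trace in RNA levels.

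These hairpins, the iron-responsive elements, are shown because they are the sequence feature several of the genes share and because they set which RNA levels are known to follow iron. Protein-coding transcripts were searched on their own strand for C, 5 stem bases, the loop CAGTGN and 5 bases pairing with that stem, with G-T pairs allowed. A match in a UTR was found in 160 of 21901 coding genes, which is 0.731%, and 4 of the 10 iron handling genes held 7 such elements. Each is given with 12 bases on either side of the loop and the loop in capitals, 5′ to 3′ on the gene's strand, from GENCODE M21 transcripts on mm10. The first 3 lie in the 5′ UTR and the 4 of Tfrc lie in the 3′ UTR. A match is a description of the letters, not evidence of a working site, and elements that depart from this pattern are not found by it.
Fth1 (chr19:9982732-9982761, plus strand): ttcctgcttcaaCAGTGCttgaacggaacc
Ftl1 (chr7:45459778-45459807, minus strand): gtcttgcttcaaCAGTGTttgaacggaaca
Slc40a1 (chr1:45925464-45925493, minus strand): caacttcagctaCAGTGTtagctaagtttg
Tfrc (chr16:32631219-32631248, plus strand): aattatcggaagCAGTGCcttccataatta
Tfrc (chr16:32631598-32631627, plus strand): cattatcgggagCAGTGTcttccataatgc
Tfrc (chr16:32631663-32631692, plus strand): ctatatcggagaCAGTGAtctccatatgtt
Tfrc (chr16:32631710-32631739, plus strand): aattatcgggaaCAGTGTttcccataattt

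The genes spanned more than 3 orders of magnitude in abundance, with ferritin RNAs at the top. On the scale of TPM, which divides by transcript length and library total, the ferritin light chain Ftl1 averaged 4216 ± 290 TPM over the 6 libraries (SD) and ranked 8 among all genes by mean TPM. The ferritin heavy chain Fth1 followed at 1673 ± 227 TPM, Trf at 159 ± 88.3 TPM and Aco1 at 34.4 ± 2.76 TPM, and none of these overlapped the next gene in any library. Ireb2, at 24.1 ± 1.90 TPM, and Slc11a2, at 23.1 ± 3.22 TPM, were not separated, since Ireb2 was the higher in 4 of 6 libraries. Slc40a1 (5.56 ± 1.39 TPM), Steap3 (3.59 ± 1.83 TPM), Tfrc (2.66 ± 0.893 TPM) and Cp (1.18 ± 0.846 TPM) came last. From Slc40a1 down to Cp, neighbouring ranges over the libraries overlapped, though Slc40a1 was above Steap3 in all 6 libraries. The RNA of the transferrin receptor was thus among the scarcest of the set.

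Trf encodes transferrin, the iron carrier of plasma, made in large amounts by the liver (ENSMUSG00000032554, mm10 chromosome 9, 103204001 to 103230444, minus strand). It had 3989, 2369 and 3365 estimated counts in libraries labelled KO, replicates 1, 2 and 3, against 12567, 8268 and 10255 in libraries labelled WT. As CPM these were 135, 78.2 and 114 in libraries labelled KO and 382, 280 and 272 in libraries labelled WT. The groups did not overlap: the highest library labelled KO, replicate 1, lay well under the lowest library labelled WT, replicate 3. The means were 109 ± 28.6 CPM in libraries labelled KO and 311 ± 61.5 CPM in libraries labelled WT (SD, n = 3 each), a 2.86-fold lower level (log2 fold change -1.51, SE 0.23). By rank of TPM within a library, Trf stood at places 1466, 2501 and 1751 in libraries labelled KO and at 536, 730 and 841 in libraries labelled WT. The annotation also holds another protein-coding gene on the same strand that overlaps Trf and is absent from the deposited tables. Reads cannot be told apart where these genes overlap. In sorted bulk RNA, fewer cells that express Trf and less Trf RNA per cell cannot be told apart.

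**Figure D1:**
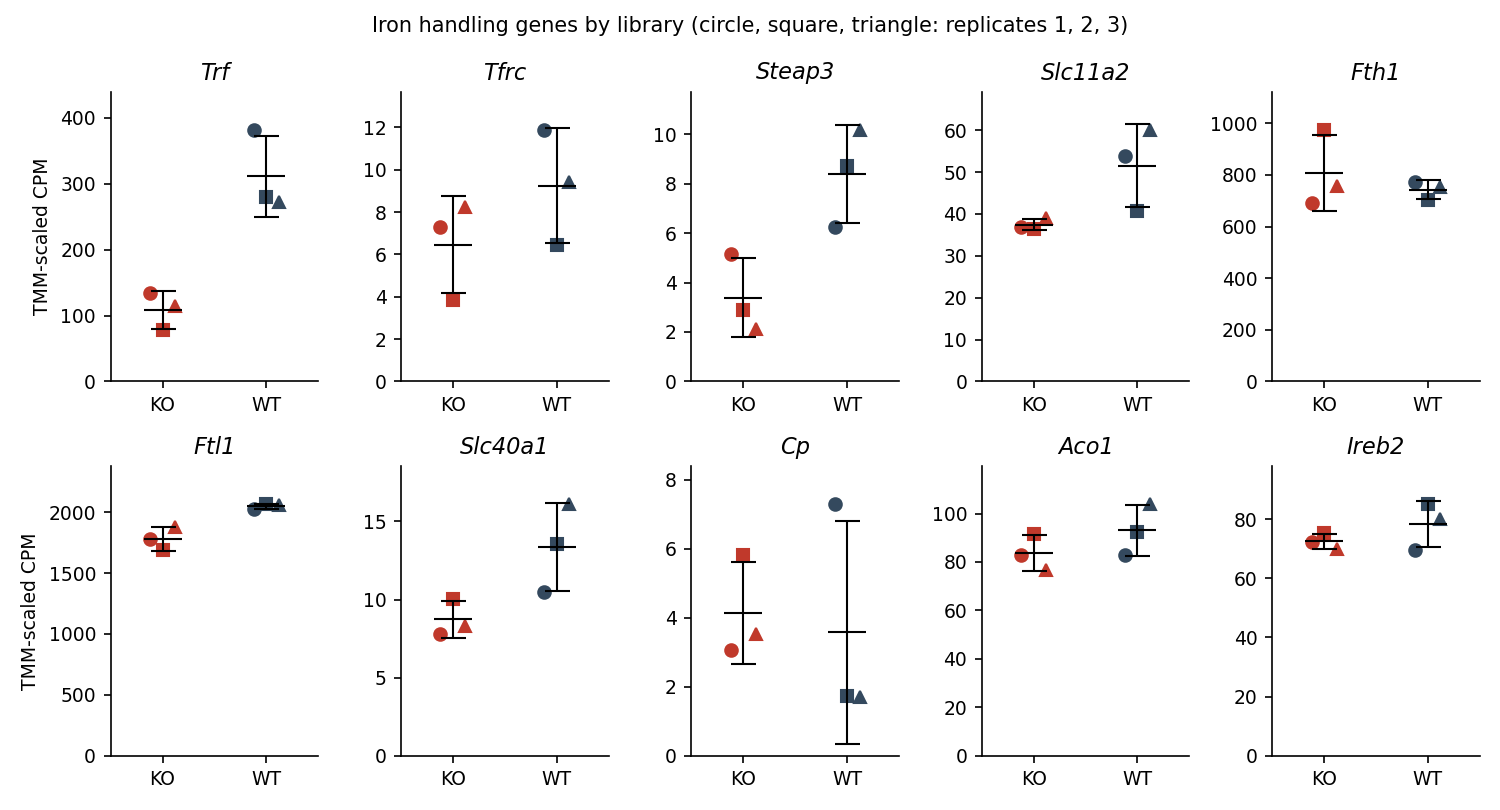
TMM-scaled CPM of the 10 iron handling genes, 1 panel per gene with its own linear axis from 0, libraries labelled KO left of libraries labelled WT; symbols are replicates 1 to 3, and bars are the mean and SD of 3 libraries. Trf lies between 78.2 and 135 CPM in libraries labelled KO and between 272 and 382 CPM in libraries labelled WT, while Tfrc, Fth1, Cp, Aco1 and Ireb2 overlap between the labels.

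Over all genes, the comparison of the labels called 5 of 14667 (0.0341%) with edgeR's quasi-likelihood test at an adjusted p under 0.05. Of these, 2 (0.0136% of all tested genes) were lower in libraries labelled KO. Of the 9 genes other than Trf, 0 were called by edgeR, 3 had an unadjusted p under 0.05 (a level that 12.6% of all tested genes reached), and 0 were called by DESeq2. DESeq2 called 396 genes (2.7%) over the whole table. By CPM, libraries labelled KO lay wholly under libraries labelled WT for 4 of these 9 and wholly above for 0, against 9.44% and 10.8% of all tested genes. The median log2 fold change of the 9 was -0.20, beside 0.0086 for all tested genes, and 7 of the 9 were negative, beside 49.1% of all tested genes.

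Among the uptake genes, Steap3, the ferrireductase that reduces iron in endosomes of red cell precursors, had the largest difference after Trf. It had 5.17, 2.87 and 2.13 CPM in libraries labelled KO, replicates 1, 2 and 3, against 6.26, 8.70 and 10.2 CPM in libraries labelled WT. The groups did not overlap, though replicate 1 of each label came close to the other (log2 fold change -1.30, SE 0.39, edgeR adjusted p = 0.3005). DESeq2 gave Steap3 an adjusted p of 0.0558, just over the threshold. Slc11a2, or DMT1, which carries ferrous iron out of the endosome, had 36.9, 36.3 and 39.0 CPM in libraries labelled KO, against 53.9, 40.6 and 60.1 CPM in libraries labelled WT. Replicate 2 labelled WT lay just above the libraries labelled KO (log2 fold change -0.46, SE 0.16, edgeR adjusted p = 0.334). Tfrc, the transferrin receptor, had 7.30, 3.86 and 8.22 CPM in libraries labelled KO, against 11.9, 6.43 and 9.44 CPM in libraries labelled WT. The labels overlapped, with replicate 2 the lowest of each (log2 fold change -0.52, SE 0.36, edgeR adjusted p = 0.562).

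The ferritin chains together form the iron storage shell. Ftl1, the light chain, had 1779, 1686 and 1880 CPM in libraries labelled KO, against 2026, 2067 and 2057 CPM in libraries labelled WT. The groups did not overlap but lay close together (log2 fold change -0.20, SE 0.11, edgeR adjusted p = 0.463). Fth1, which carries the ferroxidase activity, had 691, 975 and 758 CPM in libraries labelled KO, against 773, 702 and 755 CPM in libraries labelled WT. Replicate 2 labelled KO stood above the other 5 libraries, which were mixed (log2 fold change 0.12, SE 0.15, edgeR adjusted p = 0.768; -0.039 without that library). Ftl1 and Fth1 have near-identical copies elsewhere in the genome, so their counts are uncertain to that extent.

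For export, Slc40a1 encodes ferroportin, the cellular iron exporter. It had 7.81, 10.0 and 8.33 CPM in libraries labelled KO, against 10.5, 13.6 and 16.1 CPM in libraries labelled WT. The closest libraries, replicate 2 labelled KO and replicate 1 labelled WT, were nearly level (log2 fold change -0.62, SE 0.22, edgeR adjusted p = 0.342). Cp, the plasma ferroxidase ceruloplasmin that helps load iron onto transferrin, had 3.08, 5.81 and 3.52 CPM in libraries labelled KO, against 7.30, 1.73 and 1.70 CPM in libraries labelled WT. Replicate 1 labelled WT was the highest of all and the other libraries labelled WT the lowest (log2 fold change 0.21, SE 0.63, edgeR adjusted p = 0.908). Without that library the log2 fold change was 1.26 (edgeR adjusted p = 0.389). Cp overlaps Hps3 on the opposite strand, which had 648 to 1024 counts per library against 51 to 240 for Cp, and no source used here says that strand was kept.

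Of the iron regulatory proteins, Aco1, which serves as a cytosolic aconitase when it holds an iron-sulphur cluster and as IRP1 when it does not, had 82.9, 91.6 and 76.8 CPM in libraries labelled KO, against 83.0, 92.3 and 104 CPM in libraries labelled WT. Ireb2, or IRP2, which is degraded when iron is plentiful, had 72.2, 75.3 and 70.0 CPM in libraries labelled KO, against 69.7, 85.2 and 80.2 CPM in libraries labelled WT. The labels overlapped for both genes (log2 fold change -0.15, SE 0.12, for Aco1 and -0.11, SE 0.11, for Ireb2; edgeR adjusted p = 0.626 and 0.691).

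**Figure D2:**
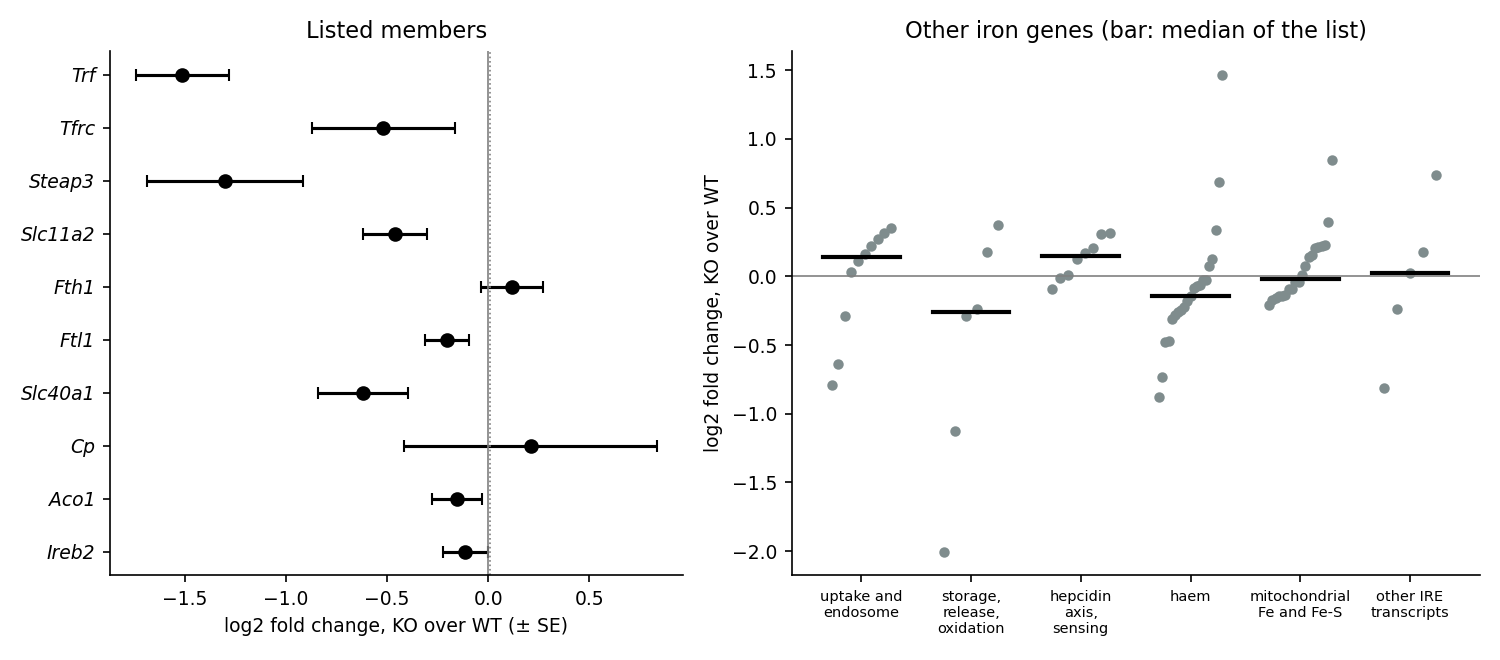
Left, log2 fold change of libraries labelled KO over libraries labelled WT with its SE for the 10 iron handling genes (solid line at 0, dotted line at the median of all tested genes, 0.0086). Right, the same value for each tested gene of 6 other iron lists, with a bar at each list's median; Trf at -1.51 and Steap3 at -1.30 are the lowest on the left, and the list medians on the right lie between -0.26 and 0.15.

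Iron scarcity is known to raise Tfrc RNA through its 3′ elements, so the balance of receptor to ferritin RNA was set out per library. The log2 ratio of Tfrc to Fth1, in TPM, was -9.24, -10.64 and -9.20 in libraries labelled KO, replicates 1, 2 and 3, against -8.69, -9.44 and -8.99 in libraries labelled WT. The labels overlapped, and the mean difference of -0.65 (KO minus WT) was within the spread (exact two-sided permutation p = 0.3, adjusted over 2 ratios p = 0.3). It shrank to -0.18 without replicate 2 labelled KO, the lowest library. The log2 ratio of Fth1 to Ftl1 was -1.39, -0.82 and -1.34 in libraries labelled KO, against -1.42, -1.59 and -1.48 in libraries labelled WT. The groups were just apart, with a mean difference of 0.31 (exact two-sided permutation p = 0.1, the smallest that 3 against 3 allows; adjusted p = 0.2). Replicate 2 labelled KO carried most of it as well, and the difference was 0.13 without that library.

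**Figure D3:**
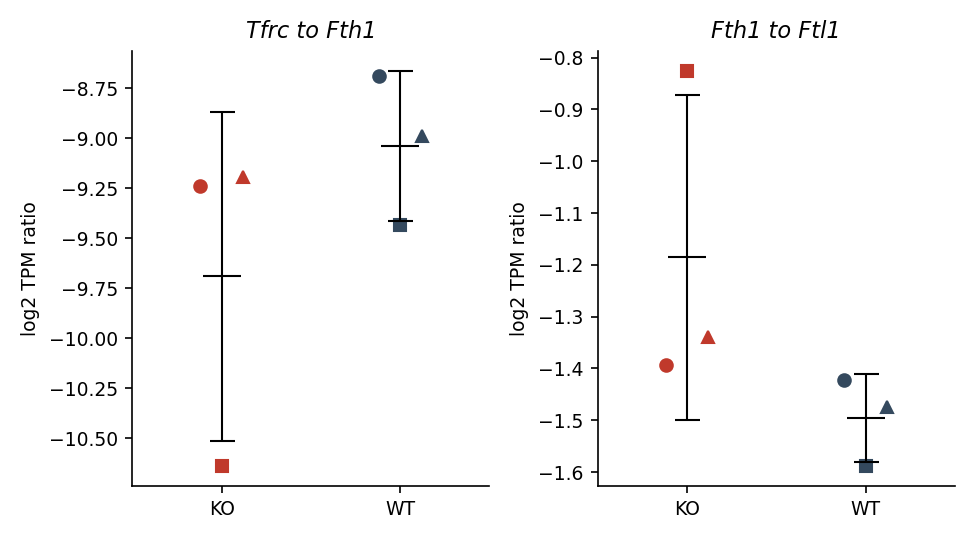
log2 TPM ratios of Tfrc to Fth1 (left) and of Fth1 to Ftl1 (right) in libraries labelled KO, left, and labelled WT, right; circle, square and triangle are replicates 1, 2 and 3, and bars are the mean and SD of 3 libraries. Replicate 2 labelled KO is the lowest point on the left, at -10.64, and the highest on the right, at -0.82.

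Beyond the 10 genes, 79 further iron genes were grouped by role, of which 70 were tested. None was called by edgeR, beside 0.0341% of all tested genes, or by DESeq2, beside 2.7%. An unadjusted edgeR p under 0.05 was reached by 7 of the 70, beside 12.6% of all tested genes. The median log2 fold change of the 70 was -0.025, with 33 positive and 37 negative. By CPM, libraries labelled KO lay wholly above libraries labelled WT for 6 of the 70 and wholly under for 9, beside 10.8% and 9.44% of all tested genes.

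The 7 genes with an unadjusted p under 0.05 are named for that reason, after their values were seen, and the labels did not overlap for any of them. Those higher in libraries labelled KO were Cdc14a, a phosphatase (log2 fold change 0.74, SE 0.26), Slc25a28, a mitochondrial iron importer (0.40, SE 0.16), and Pcbp1, a chaperone that delivers iron to ferritin (0.37, SE 0.12). Those lower were Hmox1, the inducible haem oxygenase (-0.47, SE 0.17), Urod, an enzyme of haem synthesis (-0.31, SE 0.11), Heph, a membrane ferroxidase that works with ferroportin (-0.29, SE 0.12), and Hmox2, the constitutive haem oxygenase (-0.28, SE 0.11). Their edgeR adjusted p ran between 0.317 and 0.386.

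The uptake and endosome list (10 tested, 7 positive, none without overlap) had a median of 0.14. Its most abundant genes were Snx3, a sorting nexin that recycles the transferrin receptor (log2 fold change 0.029, SE 0.11), Hfe, the haemochromatosis protein (0.27, SE 0.12), and Exoc6, an exocyst subunit (0.31, SE 0.15). The storage and release list (6 tested, 2 positive) had a median of -0.26. Without overlap, it had 1 gene higher and 2 lower in libraries labelled KO, beside 10.8% and 9.44% of all tested genes. Its most abundant genes were Pcbp2, like Pcbp1 an iron chaperone, whose labels overlapped (log2 fold change 0.17, SE 0.12), Pcbp1, and Ncoa4, the receptor for ferritin breakdown, which was lower without overlap (-0.24, SE 0.11).

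In the hepcidin axis and iron sensing list (8 tested, 6 positive, none without overlap, median 0.15), Bmp6, the ligand through which liver endothelium is known to raise hepcidin, had 164, 158 and 157 CPM in libraries labelled KO, against 159, 133 and 217 CPM in libraries labelled WT. These overlapped (log2 fold change -0.09, SE 0.18). The inhibitory Smads of that pathway were near 0 beside their error, with a log2 fold change of -0.0097 (SE 0.24) for Smad7 and 0.20 (SE 0.24) for Smad6.

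Of the haem genes, 16 of 21 tested were below 0, beside 49.1% of all tested genes, and the median was -0.15. Without overlap, 0 were higher and 6 lower in libraries labelled KO, beside 10.8% and 9.44% of all tested genes. Alas1, the first enzyme of haem synthesis outside red cell precursors, had a log2 fold change of -0.26 (SE 0.25), Slc48a1, a lysosomal haem transporter, -0.08 (SE 0.13), and Alad, the second enzyme of synthesis, -0.22 (SE 0.12).

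Mitochondrial iron and iron-sulphur genes numbered 20 tested, 10 of them positive, with a median of -0.018. Without overlap, 3 were higher and 1 lower in libraries labelled KO, beside 10.8% and 9.44% of all tested genes. Hspa9, the mitochondrial chaperone, had a log2 fold change of -0.043 (SE 0.14); of the cluster carriers, Isca1 had -0.14 (SE 0.12) and Nfu1 had -0.044 (SE 0.12). Other transcripts known to carry an iron-responsive element (5 tested, 3 positive) had a median of 0.025. Without overlap, 2 were higher and 0 lower in libraries labelled KO, beside the same 10.8% and 9.44%. Epas1, the endothelial hypoxia factor, was the most abundant of the 5, at 3357 to 5833 CPM (log2 fold change 0.025, SE 0.24). For Cdc42bpa, a kinase, that value was 0.18 (SE 0.13).

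The genes around Trf were examined for differences of the same kind. Within 500 kb on either side, 13 further genes were in the tables and 9 were tested. Of the 9, 0 were called by edgeR, beside 0.0341% of all tested genes, and 0 by DESeq2, beside 2.7%. By CPM, libraries labelled KO lay wholly under libraries labelled WT for 1 and wholly above for 0, beside 9.44% and 10.8% of all tested genes. An unadjusted edgeR p under 0.05 was reached by 1 of the 9, beside 12.6% of all tested genes. That gene was Srprb, a subunit of the signal recognition particle receptor, whose end lies 1864 bases from Trf. It had 138, 134 and 140 CPM in libraries labelled KO, against 152, 168 and 186 CPM in libraries labelled WT, without overlap (log2 fold change -0.30, SE 0.11, edgeR adjusted p = 0.354). Slco2a1, a prostaglandin transporter strongly expressed here, had 960, 1685 and 955 CPM in libraries labelled KO, against 1042, 1208 and 1541 CPM in libraries labelled WT, and overlapped (log2 fold change -0.07, SE 0.26). Log2 fold changes of the 9 neighbours ran between -0.60 and 0.39. The difference between Trf and its neighbours was not tested, since Trf was chosen for its value.

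**Figure D4:**
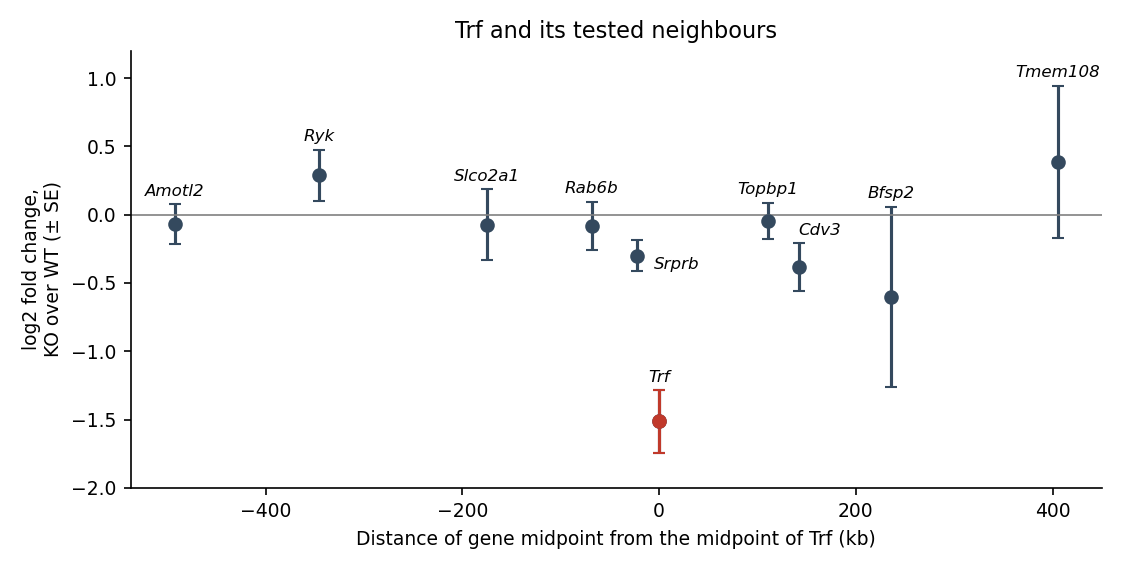
log2 fold change of libraries labelled KO over libraries labelled WT, with its SE, for Trf (red) and the 9 tested genes within 500 kb, by distance of midpoints in kb. Trf lies at -1.51 and the neighbours between -0.60 and 0.39; Bfsp2 and Tmem108, both low in counts, have the widest errors.

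Genes were also ranked by how closely their log2(CPM + 1) followed Trf over the 6 libraries. Of 11646 genes compared, the 5 closest were Nfya, a subunit of the CCAAT-box factor NF-Y (Pearson r = 0.993), Cd302, a C-type lectin receptor (0.992), Wdr73 (0.989), Dynlt1c, a dynein light chain (0.984), and Acads, a short-chain acyl-CoA dehydrogenase (0.982). Each was lower in the libraries labelled KO without overlap, but by less than Trf: Cd302 averaged 5.32 ± 0.603 CPM in libraries labelled KO and 8.82 ± 0.495 CPM in libraries labelled WT (SD, n = 3 each), and Nfya had a log2 fold change of -0.28 (SE 0.12). Within the iron set, Ftl1 followed Trf most closely (r = 0.918, place 111), ahead of Steap3 (0.814, place 553) and Slc11a2 (0.775, place 773). Fth1 ran the other way (r = -0.529). Trf falls into 2 separate groups of libraries, so the label difference enters each r.

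Markers of other cells were set beside Trf, and their part in its difference was not tested. Alveolar type 2 epithelial markers were negative for 10 of 10, with a summed level of 782 to 3701 CPM in libraries labelled KO and 335 to 9540 CPM in libraries labelled WT. By replicate 1, 2 and 3 the sums were 3701, 2397 and 782 CPM in libraries labelled KO, against 9540, 335 and 4199 CPM in libraries labelled WT, so the labels overlapped. Erythroid markers (8 of 9 tested negative) summed to 661 to 2471 CPM in libraries labelled KO and 906 to 3706 CPM in libraries labelled WT, and overlapped too. Fibroblast markers summed to 301 to 447 CPM in libraries labelled KO and 147 to 207 CPM in libraries labelled WT, without overlap. Of these 10 markers, 8 were positive and 1 was called by edgeR, beside 0.0341% of all tested genes. Col1a1, Col1a2 and Col3a1 made up most of each sum, while Lum, Pdgfra, Tcf21 and Gpc3 overlapped between the labels.

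Schwann cell markers (4 of 6 tested negative) summed to 37.6 to 40.4 CPM in libraries labelled KO and 45.8 to 66.4 CPM in libraries labelled WT, without overlap. Cnp made up most of each sum, with 30.2 to 35.9 CPM in libraries labelled KO and 38.6 to 60.2 CPM in libraries labelled WT, and the defining Sox10 was at 0 to 0.07 CPM in libraries labelled KO and at 0 to 0.52 CPM in libraries labelled WT. Of the macrophage markers, Marco, Csf1r and C1qc had 0 counts in every library, and the list summed to 31.2 to 188 CPM in libraries labelled KO and 22.4 to 432 CPM in libraries labelled WT (1 of 3 tested positive), mainly from Lyz2. Airway epithelial markers (2 of 7 tested positive) summed to 340 to 658 CPM in libraries labelled KO and 103 to 947 CPM in libraries labelled WT. Mesothelial markers summed to 2.40 to 10.1 CPM in libraries labelled KO and 3.05 to 35.9 CPM in libraries labelled WT (0 of 2 tested positive). Krt19 made up most of each sum. The defining Msln was at 0 to 0.56 CPM in libraries labelled KO and at 0 to 1.31 CPM in libraries labelled WT. B cell markers summed to 2.87 to 9.51 CPM in libraries labelled KO and 5.44 to 6.60 CPM in libraries labelled WT (2 of 4 tested positive). T and NK cell markers summed to 1.82 to 3.82 CPM in libraries labelled KO and 1.46 to 2.17 CPM in libraries labelled WT (1 of 1 tested positive). The endothelial markers (4 of 10 positive) summed to 13866 to 16559 CPM in libraries labelled KO and 14079 to 17562 CPM in libraries labelled WT, so the labels overlapped.

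**Figure D5:**
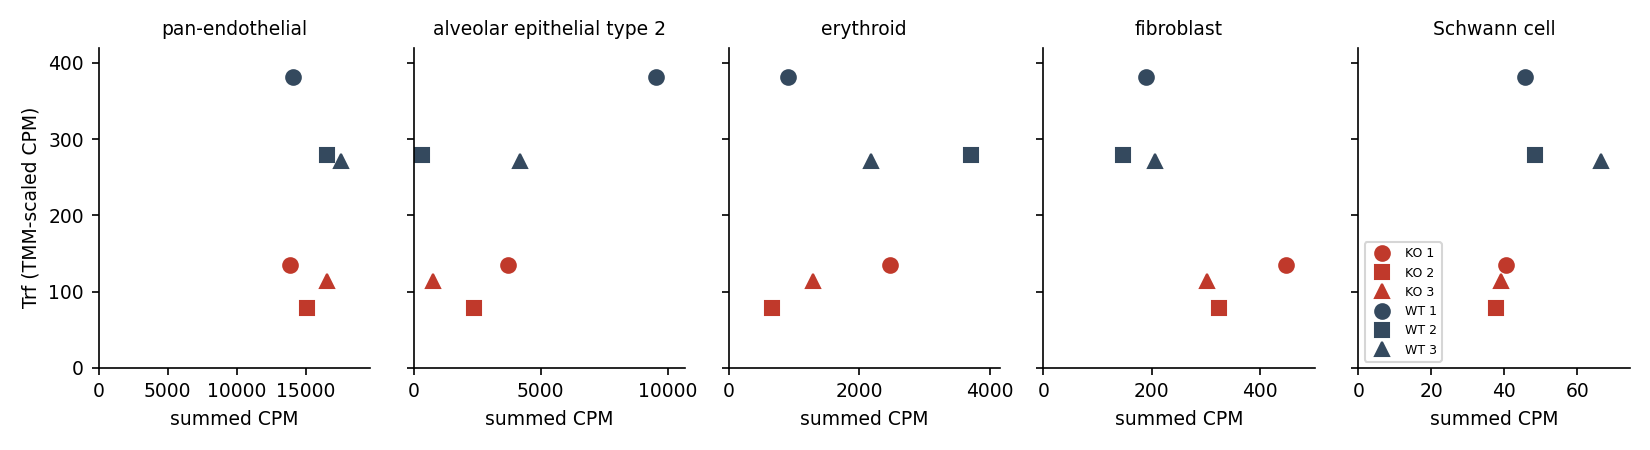
Trf in TMM-scaled CPM (vertical axis) against the summed CPM of 5 marker lists (horizontal axes) in the 6 libraries; red, libraries labelled KO, and dark, libraries labelled WT, with circle, square and triangle for replicates 1, 2 and 3. Fibroblast sums (301 to 447 CPM in libraries labelled KO, 147 to 207 CPM in libraries labelled WT) and Schwann cell sums do not overlap between the labels, and alveolar type 2 and erythroid sums do.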

How the data were processed

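RNA of sorted lung endothelial cells was amplified as cDNA with a kit for very small inputs and read from both ends on a HiSeq, per the labels' protocols. The authors deposited estimated counts per gene, in whole numbers and not normalized, and TPM values, which sum to 875864 to 885609 per library. The submitters' processing notes name kallisto and mm10; no source used here gives the annotation or how transcripts were summed to genes. Symbols and positions came from GENCODE M21 (24298 of 24520 identifiers matched), with 2 names found through RefSeq synonyms.

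Estimated counts, rounded (which changed none), were tested with edgeR 4.0.16 (R 4.3.3, limma 3.58.1): TMM factors, filterByExpr, quasi-likelihood test of libraries labelled KO over libraries labelled WT with no covariate, and Benjamini-Hochberg adjustment over 14667 genes at 0.05. The SE is the log2 fold change divided by the square root of F. Ratios of TPM were compared by exact permutation. The method was tested on simulated data. Library totals were 28136194 to 39999172 counts. A chi-square over its degrees of freedom of 47.3 to 105 set same-label libraries apart beyond sampling noise.

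The 10 genes, the iron and marker lists and the tests were chosen with earlier results of these data known. Named beside the 10 were the 3 most abundant tested genes of each iron list and any called. The 5 genes most like Trf were also named, among the 11646 tested genes averaging 50 counts or more with clone and predicted-gene symbols left out. The neighbours of Trf and iron genes with an unadjusted p under 0.05 were added after values were seen. So were Cnp, Lyz2, Krt19, the named fibroblast markers and the gene opposite Cp. A gene that this rule names is not reported here. Alternatives were DESeq2 1.42.0, a replicate block, RLE factors, scaling by library size alone, testing without a filter, a minimum mean count of 50, limma on log2(TPM + 1) and log2(TPM + 0.1), TPM of at least 1 in 3 libraries, and leaving out each library.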

Additional observations from a re-analysis of the deposited data

How the results depend on the processing

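The number of genes called over the whole table was 5, and it was 396 with DESeq2, 3 with limma on log2(TPM + 1), 1 with limma on log2(TPM + 0.1), and 1 to 4 when each library was left out in turn; the cause was not tested. With the replicate number as a block it was 0 (1472 genes at an unadjusted p under 0.05 by edgeR). Same-numbered libraries did not all deviate together (correlations of deviations from the group means 0.309, -0.0639 and -0.195). With 3 libraries per label, these values cannot settle whether the number pairs them. Under all 15 alternatives, 0 of the 9 genes other than Trf and 0 of the other iron genes were called. The log2 fold change of Trf kept its sign, at -1.53 to -1.45 over the 9 alternatives with all libraries, -1.53 with the block, and -1.70 to -1.32 with a library left out. Of 134 values of the other 9 genes, 130 kept sign and side of the threshold and 4 changed sign, all on leaving out a library: Fth1 ran from -0.039 to 0.21 and Cp from -0.13 to 1.26. Cp did not pass the TPM filter, so it has no value there. The ratios kept their direction: Tfrc to Fth1 was -0.90 to -0.18 and Fth1 to Ftl1 was 0.13 to 0.41 with a library left out, and with the block -0.65 and 0.31. With 3 libraries per label, differences as small as those of the iron regulatory proteins were not resolved. Larger ones were not called either, such as that of Steap3 (log2 fold change -1.30, edgeR adjusted p = 0.3005, DESeq2 adjusted p = 0.0558).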
